A study of Mus musculus with 18 samples.

Results

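The genes described here are those of cholesterol and fatty acid synthesis in mouse basophils and mast cells: the enzymes of both pathways, their transcriptional regulators and 1 sterol carrier. They were taken from a list of 33 gene symbols by matching each symbol to the array's annotation, and 31 of the 33 had a probe. Those 31 stand among 19084 genes and 26423 probes on the array. Hmgcs1 and Acat2 were not analysed here. Of the 31 measured genes, 16 encode cholesterol synthesis enzymes, 9 encode enzymes of fatty acid synthesis, elongation and desaturation, and 6 encode regulators or the sterol carrier Stard4.

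RNA of 18 samples was hybridised to single-dye microarrays, in 6 groups of 3 samples, all from C57Bl/6 mice. Basophils, rare granulocytes of blood and bone marrow, were grown for 5 days with interleukin-3 at 20 ng/ml in 4 of the groups: Cebpa f/f cells with 4-hydroxytamoxifen at 100 nM, Cebpa f/f cells without it, Cebpa +/+ cells with it and Cebpa +/+ cells without it. All 4 of these groups carry RosaYFP/creER, a yellow fluorescent reporter with a Cre recombinase that 4-hydroxytamoxifen activates, so the drug also reached Cre in Cebpa +/+ cells. The fifth group is fresh basophils, purified from bone marrow 3 days after mice received interleukin-3 complexed with its antibody, and the sixth is mast cells grown from bone marrow for 4 weeks with interleukin-3 at 20 ng/ml. The labels do not give the age or sex of the mice, do not say whether cultured cells were selected for the reporter, and do not say that replicates came from separate mice or cultures. The p-values therefore measure the spread between these samples only, which may be technical, and 3 arrays per group limit the precision.

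Cholesterol is built from acetyl-CoA through mevalonate, isoprenoid diphosphates, squalene and lanosterol, and fatty acids are built from the same precursor through malonyl-CoA. Both pathways are transcribed under the control of the SREBP factors, encoded by Srebf1 and Srebf2. SCAP escorts these factors out of the endoplasmic reticulum when sterols are scarce, and INSIG proteins hold them there when sterols are plentiful. Basophils and mast cells use polyunsaturated fatty acids as the source of leukotrienes and prostaglandins.

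Levels below are quantile-normalized intensities over all 18 arrays, on a linear scale, given per array or as mean ± SD (n = 3). They rank samples for 1 gene and not genes against each other. Fold changes are log2 differences ± SE from limma, computed on log2(intensity + 16), so they understate changes of dim genes. Each fit normalized its own arrays, so fold changes can differ slightly from those of the printed levels. A gene was called when its Benjamini-Hochberg adjusted p over all 26423 probes was under 0.05. A gene was taken as not above background in a group when its deposited intensity did not pass 30 on any of the group's arrays, and a fold against such a group is given only as a lower bound. In whole samples, fewer cells of a type and less RNA per cell cannot be told apart.

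Across arrays, the median deposited intensity ranged between 24 and 42, and 47.3 to 54.8% of probes passed 30. Cebpa itself, the targeted transcription factor, measured 65.5 ± 6.60 in drug-treated Cebpa f/f basophils and 983 ± 63.5 in untreated Cebpa f/f basophils, against 2778 ± 220 and 2369 ± 203 in treated and untreated Cebpa +/+ basophils. It measured 2243 ± 144 in fresh basophils and 55.5 ± 9.13 in mast cells. Untreated Cebpa f/f cells thus had less Cebpa signal than untreated Cebpa +/+ cells. All 6 basophil markers passed background in every basophil group, while in mast cells 5 of 6 did, with Il4 not above background. All 5 measured mast cell markers passed in mast cells and also in every cultured basophil group. In fresh basophils all of them but Mcpt2 passed, so passing background alone does not separate the cell types.

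**Figure D1:**
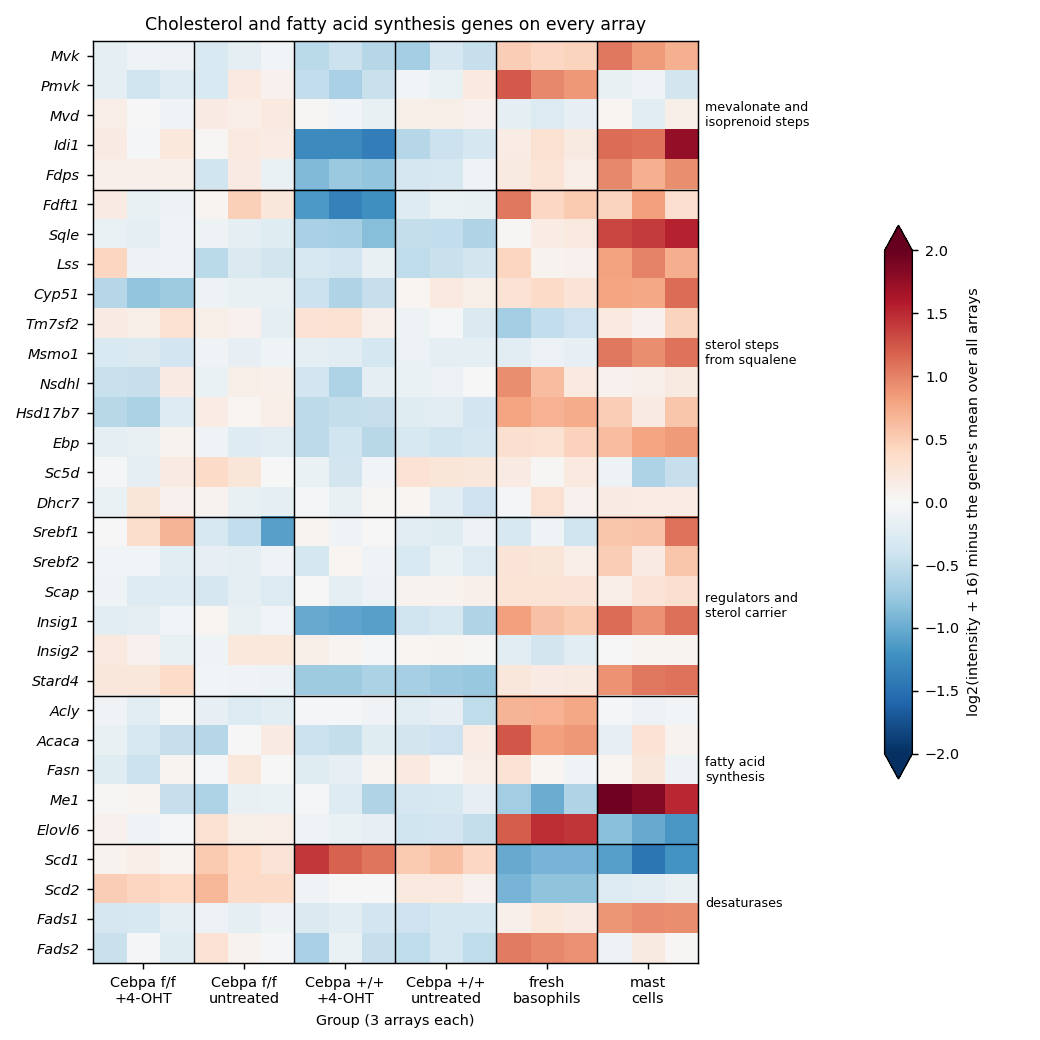
Level of each of the 31 genes (rows, ordered by role) on each of the 18 arrays (columns, 3 per group), as log2 of the normalized intensity plus 16 minus the gene's mean over all arrays, with red above and blue below that mean; 4-OHT is 4-hydroxytamoxifen. Mast cells hold the highest group mean for 16 of the 31 genes, and drug-treated Cebpa +/+ basophils hold the lowest for 11. The 11 include Nsdhl, which was not above background in that group. Such positions were not counted over all genes.

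Of the 31 genes, 27 passed background in every group. Fasn, the fatty acid synthase, did not pass in any of the 6 groups, Me1, the malic enzyme that supplies NADPH, passed in mast cells only, and Nsdhl, a sterol dehydrogenase, passed in fresh basophils only. Srebf1 failed to pass only in untreated Cebpa f/f basophils. Mast cells had the highest group mean for 10 of the 16 cholesterol synthesis genes. Drug-treated Cebpa +/+ basophils had the lowest for 9 of these 16, and for 11 of 16 among the 4 cultured basophil groups. Both of these counts include Nsdhl, which was not above background in any cultured basophil group. Such positions were not counted over all genes, so they cannot be read as particular to these genes.

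The response to 4-hydroxytamoxifen differed between Cebpa f/f and Cebpa +/+ basophils for 6 of the 31 genes. Idi1, Fdps, Fdft1 and Insig1 had a higher drug effect in Cebpa f/f than in Cebpa +/+ cells, and Scd1 and Elovl6 a lower one. The 6 genes are 19.4% of the 31, and 11.3% of all probes passed this test (5.46% with a higher and 5.81% with a lower drug effect in Cebpa f/f cells). The median difference was 0.06 over the 31 genes and -0.0058 over all genes on the log2 scale. Among genes above background in a group compared, 18.7% passed, so the share of the 31 is near that rate.

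Idi1, the isomerase that makes the reactive isoprenoid unit, measured 289.5, 249.4 and 299.7 in drug-treated Cebpa f/f basophils and 263.1, 299.3 and 286.1 in untreated ones. It measured 97.3, 96.8 and 88.7 in drug-treated Cebpa +/+ basophils and 167.7, 187.3 and 201.6 in untreated ones. The treated and untreated groups overlapped in Cebpa f/f cells and stood apart in Cebpa +/+ cells. The drug effect was 0.84 ± 0.14 higher in Cebpa f/f cells on the log2 scale (limma adjusted p = 0.00193).

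Fdps, the synthase of farnesyl diphosphate, measured 166.3, 166.1 and 166.0 in drug-treated Cebpa f/f cells and 112.7, 173.0 and 138.0 in untreated ones. In Cebpa +/+ cells it measured 75.4, 84.9 and 81.8 with the drug and 118.5, 119.2 and 145.7 without it. Only the Cebpa +/+ groups did not overlap. The difference in drug effect was 0.79 ± 0.18 (limma adjusted p = 0.0141).

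Fdft1, squalene synthase, which commits farnesyl diphosphate to sterols, measured 428.6, 342.0 and 356.3 in drug-treated Cebpa f/f basophils and 398.7, 540.6 and 450.7 in untreated ones. The Cebpa +/+ values were 163.2, 139.5 and 154.0 with the drug and 317.6, 348.1 and 343.1 without it. The drug-treated Cebpa +/+ arrays were the lowest of the 18. The difference in drug effect was 0.76 ± 0.17 (limma adjusted p = 0.0124), and it was 0.32 (adjusted p = 0.0988) when the other Fdft1 probe, which lies at background, was averaged in.

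Insig1, which retains SCAP in the endoplasmic reticulum and is itself induced by SREBP factors, measured 337.1, 348.2 and 381.8 in drug-treated Cebpa f/f cells and 407.8, 353.8 and 381.6 in untreated ones. It measured 189.6, 182.7 and 177.1 in drug-treated Cebpa +/+ cells and 294.7, 314.0 and 256.7 in untreated ones. As with Idi1, the groups overlapped in Cebpa f/f cells and not in Cebpa +/+ cells. The difference of 0.50 ± 0.13 passed narrowly (limma adjusted p = 0.0307), and it missed the threshold without any 1 of replicates 2 and 3 of treated Cebpa f/f, untreated Cebpa f/f or treated Cebpa +/+ cells, or replicates 1 and 2 of untreated Cebpa +/+ cells (adjusted p between 0.0521 and 0.0792).

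Scd1, a stearoyl-CoA desaturase that makes monounsaturated fatty acids, ran the other way. It measured 170.1, 178.0 and 167.8 in drug-treated Cebpa f/f cells and 238.9, 217.8 and 196.5 in untreated ones. In Cebpa +/+ cells it measured 458.2, 386.2 and 359.2 with the drug and 239.2, 252.8 and 220.7 without it. The difference in drug effect was -1.01 ± 0.15 (limma adjusted p = 9.17e-04), and it passed under every alternative run.

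Elovl6, which elongates saturated fatty acids, measured 349.5, 313.3 and 321.1 in drug-treated Cebpa f/f cells and 409.3, 358.9 and 361.0 in untreated ones. The Cebpa +/+ arrays gave 312.0, 299.8 and 292.2 with the drug and 246.6, 248.2 and 233.6 without it. The treated arrays were below the untreated ones in Cebpa f/f cells and above them in Cebpa +/+ cells. Its difference in drug effect was -0.47 ± 0.12 (limma adjusted p = 0.0232). Elovl6 lost its call without treated Cebpa f/f replicate 2, treated Cebpa +/+ replicate 1 or untreated Cebpa +/+ replicate 3, each of which left 1 lower call among the 31 genes.

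**Figure D2:**
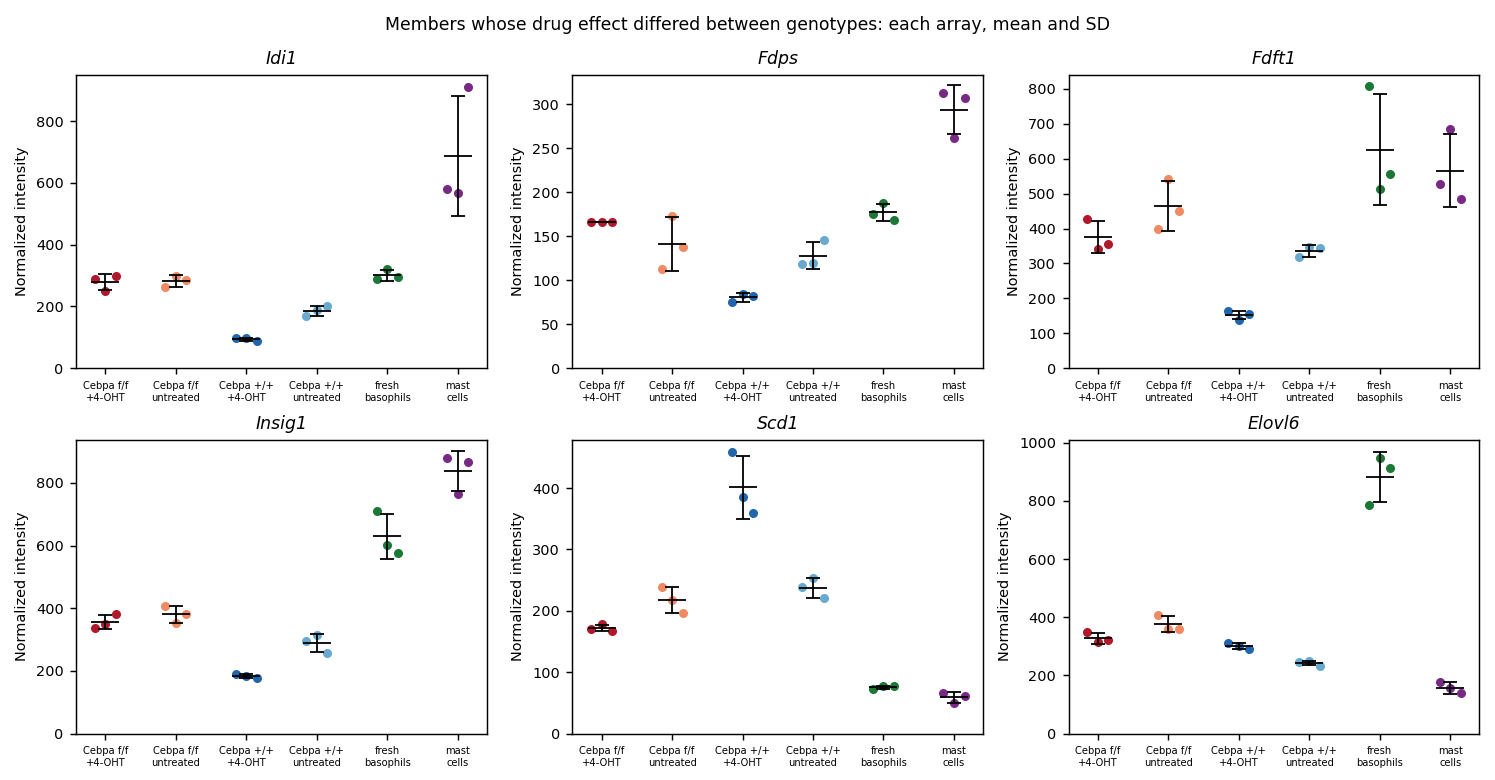
Normalized intensity (y axis, linear) of Idi1, Fdps, Fdft1, Insig1, Scd1 and Elovl6 on each of the 18 arrays (points), with the mean and SD of each group of 3 (bars); groups run along the x axis and 4-OHT is 4-hydroxytamoxifen. Drug-treated Cebpa +/+ basophils are the lowest of the 6 groups for Idi1, Fdps, Fdft1 and Insig1 and the highest for Scd1.

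Srebf1, Srebf2 and Insig2 did not pass this test. No size is given for Srebf1 (limma adjusted p = 0.0851), since untreated Cebpa f/f cells were not above background. The difference in drug effect was -0.07 ± 0.15 for Srebf2 (limma adjusted p = 0.837) and -0.08 ± 0.15 for Insig2 (adjusted p = 0.827). Srebf1 reached the threshold without treated Cebpa f/f replicate 1 (adjusted p = 0.0417) or untreated Cebpa f/f replicate 1 (adjusted p = 0.0422). With arrays scaled to a common median in place of quantile normalization, none of the 4 higher calls passed: Idi1 had 0.56 (adjusted p = 0.200), Fdps 0.55 (adjusted p = 0.249), Fdft1 0.50 (adjusted p = 0.263) and Insig1 0.24 (adjusted p = 0.633). Elovl6 missed the threshold under that scaling too (-0.71, adjusted p = 0.0644) and without normalization (-0.28, adjusted p = 0.114), which left 1 lower call each time. Without normalization 8 genes had a higher drug effect in Cebpa f/f cells. The median over the 16 cholesterol genes was 0.15 with quantile normalization and -0.02 with median scaling. That scaling put the median of all probes at -0.13, and treated Cebpa +/+ replicate 2 had a median intensity of 24, against 33 and 35 on the other arrays of its group.

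The promoters of Idi1, Insig1 and Elovl6 are shown because Idi1 and Insig1 moved one way in this test and Elovl6 the other, and because only these 3 of the 6 genes could be matched to a promoter. Each is the 250 bases before the gene's first listed start in RefSeq on GRCm38.p6, plus strand, 5′ to 3′, and capitals mark CCAAT or CACGTG on either strand. Idi1 lies at chr13:8885356-8885605, Insig1 at chr5:28071162-28071411 and Elovl6 at chr3:129532136-129532385.
Idi1: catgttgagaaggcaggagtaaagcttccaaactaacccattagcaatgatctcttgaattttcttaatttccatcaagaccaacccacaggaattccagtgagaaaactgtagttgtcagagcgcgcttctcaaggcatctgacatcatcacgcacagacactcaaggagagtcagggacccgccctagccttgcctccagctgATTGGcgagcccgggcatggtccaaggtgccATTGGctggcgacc
Insig1: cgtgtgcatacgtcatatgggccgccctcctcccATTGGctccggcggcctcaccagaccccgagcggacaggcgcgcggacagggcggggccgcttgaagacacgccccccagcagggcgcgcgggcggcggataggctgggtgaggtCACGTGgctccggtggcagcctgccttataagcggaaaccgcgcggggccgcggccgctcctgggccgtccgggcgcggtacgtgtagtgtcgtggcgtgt
Elovl6: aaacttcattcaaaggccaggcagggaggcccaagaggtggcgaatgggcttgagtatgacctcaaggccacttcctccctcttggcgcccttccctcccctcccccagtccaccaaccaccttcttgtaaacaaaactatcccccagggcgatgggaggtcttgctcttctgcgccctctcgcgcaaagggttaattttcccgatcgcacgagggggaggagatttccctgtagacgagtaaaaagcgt

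The CCAAT box, a site of the factor NF-Y that works beside SREBP at sterol genes, occurred 2 times in the Idi1 window, 1 time in the Insig1 window and not in the Elovl6 window. Promoters were at hand for 24 of the 31 measured genes, and CCAAT, searched on both strands, was in 17 of the 24 (70.8%), against 34.5% of all 27025 promoters of the same length. The E-box CACGTG was in 3 of 24 (12.5%), Insig1 among them, against 6.05% of all promoters. The sterol regulatory element written as TCACNCCAC was in 0 of 24, against 1.04% of all, and TTGCNNAA, a form of the C/EBP site, was in 2 of 24 (8.33%), against 9.55%. Each motif was counted on its own, so letters shared by 2 motifs would count for both, and a match describes the letters only.

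Among drug-treated basophils, 9 of the 31 genes were higher in Cebpa f/f than in Cebpa +/+ cells and 1 was lower. The 10 called genes are 32.3% of the 31, and 30% of all probes were called in this comparison (15.4% higher and 14.6% lower), or 49.5% of genes above background. The called share is thus near that of all probes, and 9 of the 10 calls were higher. The median log2 difference was 0.15 over the 31 genes and 0.00014 over all genes. Of the 16 cholesterol synthesis genes, 6 were higher and none was lower, with a median of 0.20. With median scaling 4 of the 16 were higher and 0 lower, with a median of 0.12. Under the alternatives other than leaving out 1 array, 6 to 11 of the 31 genes were higher.

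Idi1 was higher by 1.40 ± 0.10 on the log2 scale (limma adjusted p = 4.35e-07) and Fdft1 by 1.19 ± 0.12 (adjusted p = 1.04e-05). The array values of both are given above. Fdps was higher by 0.91 ± 0.13 (adjusted p = 1.60e-04). For each of these 3 genes the lowest Cebpa f/f array was above the highest Cebpa +/+ array. Sqle, squalene epoxidase, and Ebp and Mvk, a sterol isomerase and mevalonate kinase, were the other cholesterol genes called, with differences of 0.58, 0.41 and 0.39. Pmvk was not called by its brightest probe (0.23, limma adjusted p = 0.226), but a second, dimmer probe was higher (0.47, adjusted p = 0.0328).

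Stard4, which carries cholesterol through the cytosol, measured 1381.8, 1372.9 and 1523.5 in drug-treated Cebpa f/f cells, against 708.3, 710.7 and 747.2 in drug-treated Cebpa +/+ cells. The groups did not overlap, and the difference was 0.97 ± 0.08 (limma adjusted p = 1.38e-06). Insig1 was higher by 0.88 ± 0.09 (adjusted p = 1.78e-05). Scd1 was lower, with a difference of -1.12 ± 0.10 (adjusted p = 5.20e-06), while Scd2, its paralog, was higher by 0.48. The Scd2 call was lost with median scaling.

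The SREBP genes themselves were not called in this comparison. Srebf1 measured 41.7, 57.3 and 75.4 in drug-treated Cebpa f/f cells, against 43.8, 38.6 and 41.5 in Cebpa +/+ cells, a difference of 0.35 ± 0.19 (limma adjusted p = 0.211). Srebf2 measured 121.1, 121.8 and 105.9, against 96.1, 130.3 and 119.9 in Cebpa +/+ cells, a difference of 0.02 ± 0.11 (adjusted p = 0.936). Insig2 measured 920.4, 859.2 and 726.9 in Cebpa f/f cells, against 877.6, 836.6 and 787.3 in Cebpa +/+ cells, a difference of -0.0016 ± 0.11 (adjusted p = 0.995). All 3 pairs of groups overlapped.

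Among related lists, 5 of 6 measured genes of sterol export or linked to its LXR regulators were lower in drug-treated Cebpa f/f cells. In that list 1 gene was higher, and the median was -0.42. It is called the sterol export list below, though it is not limited to exporters. Abca1, which exports cholesterol, measured 222.1, 253.6 and 186.1, against 886.1, 759.5 and 871.3 in drug-treated Cebpa +/+ cells (-1.83 ± 0.12, limma adjusted p = 1.89e-07). Lpcat3, a phospholipid remodelling enzyme, was the 1 gene higher (0.61). Of 12 genes of fatty acid activation and glycerolipid synthesis, 3 were higher and 3 lower, the largest difference being that of Dgat1, which closes triglyceride synthesis (-2.86 ± 0.13). Of 9 genes that use isoprenoids, 4 were higher and none lower, Coq2 of ubiquinone synthesis by 1.07, and of 6 SREBP processing genes 2 were higher and none lower. With median scaling 3 genes of the sterol export list were lower, 2 of the isoprenoid-use genes higher and 0 of the SREBP processing genes called by limma.

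Marker levels of basophils and of other cells moved between the same groups. Of the 6 basophil markers 2, Fcer1a and Ms4a2, were higher in drug-treated Cebpa f/f cells. Prss34 was lower (18905.3, 20785.9 and 20392.3, against 47687.7, 47687.7 and 43007.7). Mast cells also had high levels of Fcer1a (22848.4, 21975.9 and 24113.7) and Ms4a2 (8101.4, 8636.3 and 8101.4), but not of Prss34 (1453.6, 1485.6 and 1636.2). Of the 5 mast cell markers 4 were higher and Mcpt2 was not called. Their summed level was 51526.9 to 58667.8 in drug-treated Cebpa f/f basophils, against 16974.6 to 18562.2 in drug-treated Cebpa +/+ basophils, with all 5 above background in both. The 8 neutrophil markers summed to 1836.2 to 2050.2, against 11482.1 to 11892.5, with Ngp and Elane not above background in the Cebpa f/f group. S100a8 was not above background in any of the 6 groups. The 6 monocyte and macrophage markers, all lower, summed to 3157.3 to 3438.3, against 8810.0 to 9777.8. Of the 4 eosinophil markers 3 were higher and Alox15 was lower (112 ± 11.4, against 381 ± 9.34); their sum of 10781.9 to 11094.8, against 3542.5 to 3773.9, was mostly Prg2 (10555 ± 111, against 3099 ± 120). Their part in the differences of the lipid genes was not tested.

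Without the drug, 9 of the 31 genes were also higher in Cebpa f/f than in Cebpa +/+ basophils and 1 was lower. These 10 genes are 32.3% of the 31, and 14.9% of all probes were called (8.03% higher and 6.83% lower), or 25.5% of genes above background. The median difference was 0.10 over the 31 genes, and 4 of the 16 cholesterol genes were higher and none lower. The count of higher calls depended on single arrays: it was 5 without untreated Cebpa f/f replicate 1, 5 without untreated Cebpa +/+ replicate 1 and 3 without untreated Cebpa +/+ replicate 3, and the lower call was lost without replicate 3 of either group.

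Stard4 had the largest difference. It measured 1127.9, 1117.0 and 1097.6 in untreated Cebpa f/f cells, against 737.1, 704.1 and 683.7 in untreated Cebpa +/+ cells, a difference of 0.64 ± 0.08 (limma adjusted p = 1.25e-04). Elovl6 was higher by 0.58 ± 0.08 (adjusted p = 4.52e-04) and Idi1 by 0.56 ± 0.10 (adjusted p = 0.00192), and neither pair of groups overlapped.

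Fads2, a desaturase of polyunsaturated fatty acids, measured 60.7, 50.1 and 45.2 in untreated Cebpa f/f cells, against 28.4, 33.4 and 28.2 in untreated Cebpa +/+ cells (0.55 ± 0.14, limma adjusted p = 0.0204). Fdft1 was higher by 0.43 ± 0.12 (adjusted p = 0.0310), and leaving out any array of these groups other than untreated Cebpa f/f replicate 1 ended that call. The Fads2 call was lost without untreated Cebpa f/f replicate 1 or untreated Cebpa +/+ replicate 1 or 3, and the Insig1 call without untreated Cebpa f/f replicate 1 or 3 or untreated Cebpa +/+ replicate 3. Hsd17b7, Insig1, Sqle and Scd2 were higher by 0.33 to 0.39, and Scap, the SREBP escort, was lower by 0.35 on the log2 scale (-0.35). Genes of the sterol export list were lower here too, 4 of 6 with none higher (2 of 6 with median scaling), Abca1 by -1.63 ± 0.12.

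Srebf1 measured 30.1, 24.7 and 11.0 in untreated Cebpa f/f cells, where it was not above background, against 33.1, 32.4 and 37.6 in untreated Cebpa +/+ cells (at least 1.14-fold lower, limma adjusted p = 0.164). Srebf2 measured 111.3, 108.1 and 119.2, against 100.0, 114.1 and 101.9 in Cebpa +/+ cells (0.09 ± 0.11, adjusted p = 0.690). Insig2 measured 755.9, 936.7 and 932.2 in Cebpa f/f cells, against 829.9, 835.3 and 814.9 in Cebpa +/+ cells (0.07 ± 0.11, adjusted p = 0.744). Arrays of the genotypes overlapped for Srebf2 and Insig2 and not for Srebf1. The 8 neutrophil markers, 5 of them lower, summed to 5486.0 to 6181.7 in untreated Cebpa f/f cells, against 12206.8 to 13985.8 in untreated Cebpa +/+ cells. The 6 monocyte and macrophage markers, 5 of them lower and 1 higher, summed to 6932.8 to 8310.6, against 9192.5 to 10407.3. In Cebpa f/f cells that sum was mostly Adgre1, the 1 higher marker (5391.4, 6559.6 and 6465.3, against 3439.7, 3211.7 and 3493.6). The median log2 difference of these markers was -2.25. The 5 mast cell markers, 4 of them lower and 0 higher, summed to 8865.1 to 9680.7, against 12973.3 to 14016.5. The part of such cells was not tested.

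Within Cebpa +/+ basophils, 7 of the 31 genes were lower with 4-hydroxytamoxifen and 3 were higher. These 10 genes are 32.3% of the 31, and 20.4% of all probes were called (10.7% higher and 9.7% lower), or 34.6% of genes above background. Of the 16 cholesterol genes, 6 were lower and 1 was higher, with a median of -0.20, against 0.0036 for all genes. The drug-treated and untreated Cebpa +/+ groups did not overlap for 18 of the 31 genes, 8 of which were not called. The share without overlap over all genes was not computed, so this count cannot be read as particular to these genes. With median scaling 2 of the 31 genes were lower and 2 higher, and without normalization 13 were lower and 1 higher. The median over the 16 cholesterol genes was -0.07 and -0.34 under these settings.

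Fdft1 fell by 1.05 on the log2 scale (-1.05 ± 0.12, limma adjusted p = 1.02e-04) and Idi1 by 0.86 (-0.86 ± 0.10, adjusted p = 9.65e-05). Cyp51, the lanosterol demethylase, measured 179.2, 156.4 and 173.9 in treated cells, against 252.6, 282.3 and 269.5 in untreated cells (-0.60 ± 0.09, adjusted p = 4.70e-04). Insig1 fell by 0.60 (-0.60 ± 0.09, adjusted p = 8.72e-04), and Fdps, Pmvk and Sc5d were lower as well. A second, dimmer Pmvk probe missed the threshold (-0.45, limma adjusted p = 0.0505). With median scaling Cyp51 (-0.43, adjusted p = 0.0722) and Insig1 (-0.42, adjusted p = 0.0949) missed the threshold.

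Scd1 rose in treated Cebpa +/+ cells by 0.70 ± 0.10 (limma adjusted p = 5.97e-04), and Tm7sf2, a sterol reductase, and Elovl6 were higher by 0.37 and 0.29. Of these 3 higher calls 1 was left without treated replicate 1 or 2, or without untreated replicate 1 or 3. Srebf1 (0.18, adjusted p = 0.586), Srebf2 (0.11, adjusted p = 0.565) and Insig2 (0.01, adjusted p = 0.967) did not pass in this comparison, and their groups overlapped for Srebf2 and Insig2 and not for Srebf1.

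Within Cebpa f/f basophils, 3 of the 31 genes were higher with the drug and 2 lower. The 5 genes are 16.1% of the 31, and 18.6% of all probes were called (9.43% higher and 9.21% lower), or 31.4% of genes above background. The 5 are 3 cholesterol genes, Srebf1 and Stard4. Treated and untreated arrays did not overlap for 11 of the 31 genes, 6 of which were not called, and the share over all genes was not computed. The median log2 difference was -0.07 over the 31. Median scaling left 1 higher gene.

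Srebf1 measured 41.7, 57.3 and 75.4 in drug-treated Cebpa f/f cells, against 30.1, 24.7 and 11.0 in untreated ones, where it was not above background. It was at least 1.92-fold higher in treated cells (limma adjusted p = 0.00325), and the groups did not overlap. Stard4 was higher by 0.36 ± 0.08 (adjusted p = 0.00630), and by 0.14 with median scaling (adjusted p = 0.699). The 5 mast cell markers, all higher, summed to 51526.9 to 58667.8 in treated Cebpa f/f cells, against 8865.1 to 9680.7 in untreated ones. Of the 8 neutrophil markers 7 were lower and 0 higher, and of the 6 basophil markers 3 were lower and 1, Fcer1a, was higher. The part of these cells was not tested.

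Hsd17b7, a ketosteroid reductase of sterol synthesis, measured 109.8, 103.1 and 138.9 in treated Cebpa f/f cells, against 190.4, 174.7 and 186.7 in untreated ones (-0.59 ± 0.10, limma adjusted p = 0.00143). Cyp51 measured 160.6, 135.7 and 144.7, against 227.1, 221.1 and 219.8 in untreated cells (-0.55 ± 0.09, adjusted p = 7.84e-04). Lss, lanosterol synthase, measured 446.3, 302.4 and 309.6, against 219.2, 264.6 and 249.5 in untreated cells (0.47 ± 0.14, adjusted p = 0.0290). Treated replicate 1 held the highest Lss value, and without it the difference was 0.30 (adjusted p = 0.0929). The Lss call was also lost without untreated replicate 1 or 3. Without treated replicate 3 the count of lower genes was 4 in place of 2.

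**Figure D3:**
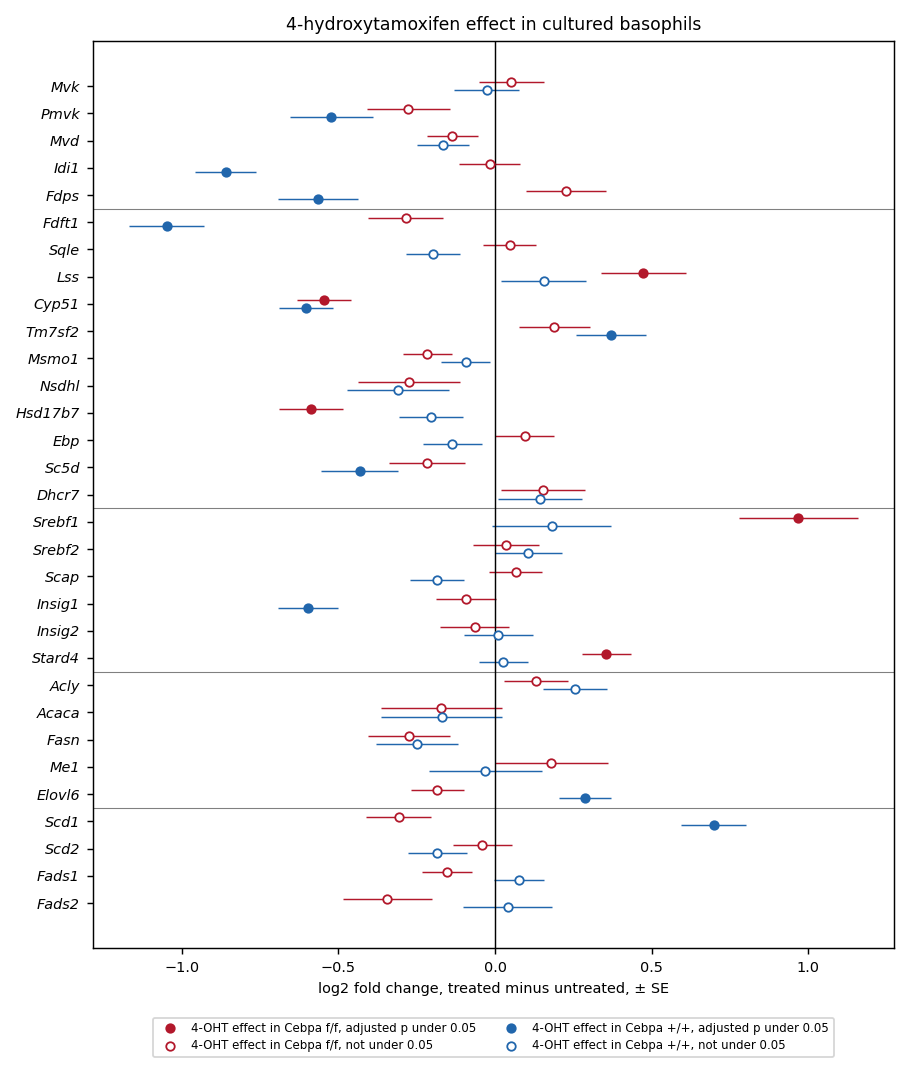
Effect of 4-hydroxytamoxifen on each of the 31 genes (rows) as log2 fold change ± SE, in Cebpa f/f basophils and in Cebpa +/+ basophils; filled points have a limma adjusted p under 0.05. In Cebpa +/+ cells 7 genes are lower and 3 higher with the drug, and in Cebpa f/f cells 2 are lower and 3 higher.

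With quantile normalization, fresh basophils had lower levels than mast cells for 9 of the 16 cholesterol genes and higher levels for 2, but that balance depended on the scaling. Of the 31 genes, 16 were lower and 6 higher in fresh basophils, 71.0% of the 31, and 37.8% of all probes were called (17.1% higher and 20.7% lower), or 58.1% of genes above background. Without normalization between arrays, 6 of the 31 were lower and 11 higher, and 4 of the 16 cholesterol genes were lower and 5 higher. The median over the cholesterol genes was -0.41, against -0.05 for all genes, and 0.03 without normalization. Of the 9 fatty acid genes, 4 were higher and 3 lower. Cell type here goes with fresh against cultured cells, and the 2 cannot be told apart in this comparison.

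Sqle, which oxidises squalene, measured 305.9, 335.1 and 345.1 in fresh basophils, against 781.0, 814.1 and 897.0 in mast cells (-1.33 ± 0.10, limma adjusted p = 1.95e-05). Msmo1, a methylsterol oxidase, measured 750.8, 796.6 and 778.2, against 1819.5, 1669.8 and 1863.8 in mast cells (-1.17 ± 0.10, adjusted p = 2.50e-05). Pmvk, phosphomevalonate kinase, measured 317.4, 261.8 and 241.7, against 111.9, 118.2 and 94.5 in mast cells (1.25 ± 0.13, adjusted p = 1.30e-04). The first 2 were lower and Pmvk higher in fresh basophils, with no overlap for any of them.

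Elovl6 measured 784.6, 949.5 and 912.6 in fresh basophils, against 177.1, 156.6 and 138.0 in mast cells (2.44 ± 0.13, limma adjusted p = 1.55e-06). Me1 measured 0, -3 and 1 in fresh basophils, where it was not above background, against 84, 76.9 and 57.5 in mast cells. It was at least 2.46-fold lower in fresh basophils (adjusted p = 4.09e-06). Acly and Acaca, the enzymes that make acetyl-CoA and malonyl-CoA, were higher by 0.77 and 0.94 in fresh basophils.

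Srebf1 measured 30.1, 38.1 and 27.7 in fresh basophils, against 67.9, 69.3 and 105.6 in mast cells (-1.02 ± 0.17, limma adjusted p = 0.00159). Srebf2 measured 154.6, 153.3 and 140.4, against 184.5, 142.9 and 193.9 in mast cells, and overlapped (-0.19 ± 0.13, adjusted p = 0.301). Insig1 measured 710.6, 601.7 and 576.2, against 880.1, 763.3 and 867.7 in mast cells (-0.42 ± 0.12, adjusted p = 0.0245). Insig2 measured 683.2, 618.9 and 692.2, against 802.2, 838.0 and 838.7 in mast cells (-0.32 ± 0.10, adjusted p = 0.0300). Both INSIG calls rest on the scaling: without normalization between arrays they took the opposite sign, 0.15 (adjusted p = 0.489) for Insig1 and 0.25 (adjusted p = 0.124) for Insig2. The Insig1 call was also lost without fresh replicate 2 or 3 or mast cell replicate 1 or 3, and the Insig2 call without any 1 of the 6 arrays.

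In the sterol export list, 5 of 6 genes were higher in fresh basophils and 1 was lower, with a median of 0.61. Abca1 measured 604, 560.3 and 546.6 in fresh basophils, against 33.7, 35.3 and 40.3 in mast cells (3.56 ± 0.10, limma adjusted p = 5.26e-08). Dgat1 was higher by 3.21 ± 0.13 (adjusted p = 3.68e-07). The 8 neutrophil markers summed to 84191.3 to 87006.2 in fresh basophils, against 550.5 to 596.3 in mast cells, where Ngp and Elane were not above background. S100a8 was not above background in either group. The 6 monocyte and macrophage markers, all higher, summed to 15303.5 to 17321.9, against 298.1 to 332.8 in mast cells. The 4 eosinophil markers, all higher, summed to 48280.1 to 49688.6, against 331.4 to 393.8. The part of such cells was not tested.

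Cultured, untreated Cebpa +/+ basophils were also set against mast cells, since both were grown with interleukin-3. The comparison shares its mast cell arrays with the one before, so the 2 are not independent. The cultured basophils also carry RosaYFP/creER and were grown for 5 days, against 4 weeks for the mast cells, and these differences cannot be told apart from cell type. Of the 31 genes, 19 were lower and 4 higher in cultured basophils, 74.2% of the 31, and 39.2% of all probes were called (16.9% higher and 22.3% lower), or 62.1% of genes above background. Of the 16 cholesterol genes, 12 were lower and 1 higher, with a median of -0.74.

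Sqle had 211.3, 207.8 and 192.9 in cultured basophils, against 781.0, 814.1 and 897.0 in mast cells (-1.94 ± 0.09, limma adjusted p = 5.30e-12). Idi1 had 167.7, 187.3 and 201.6 in cultured basophils, against 579.1, 567.9 and 909.5 in mast cells (-1.77 ± 0.14, adjusted p = 1.49e-08). Stard4 had 737.1, 704.1 and 683.7, against 2206.2, 2462.3 and 2506.2 in mast cells (-1.73 ± 0.08, adjusted p = 4.95e-12). All 3 genes were lower in cultured basophils with no overlap. Me1 had 4.6, 4.7 and 7.1 in cultured basophils, against 84, 76.9 and 57.5 in mast cells. It was at least 2.43-fold lower in cultured basophils, where it was not above background (adjusted p = 5.24e-08). Scd1 was higher, with 239.2, 252.8 and 220.7 in cultured basophils, against 66.6, 49.6 and 61.6 in mast cells (1.76 ± 0.11, adjusted p = 3.70e-10).

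Of the regulators, Insig1 was lower by -1.49 ± 0.10 (limma adjusted p = 1.73e-09), Srebf1 by -0.92 ± 0.19 (adjusted p = 8.30e-04) and Srebf2 by -0.64 ± 0.11 (adjusted p = 2.09e-04). Insig2 had a difference of 0.00095 ± 0.10 (adjusted p = 0.996). Genes of the sterol export list were higher, 5 of 6 with none lower and a median of 1.41, Abca1 by 3.64 ± 0.11. The summed neutrophil markers were 12206.8 to 13985.8 in cultured basophils, against 550.5 to 596.3 in mast cells. The 6 monocyte and macrophage markers, all higher, summed to 9192.5 to 10407.3, against 298.1 to 332.8 in mast cells. Of the 4 eosinophil markers 3 were higher and 0 lower. The part of these cells was not tested.

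**Figure D4:**
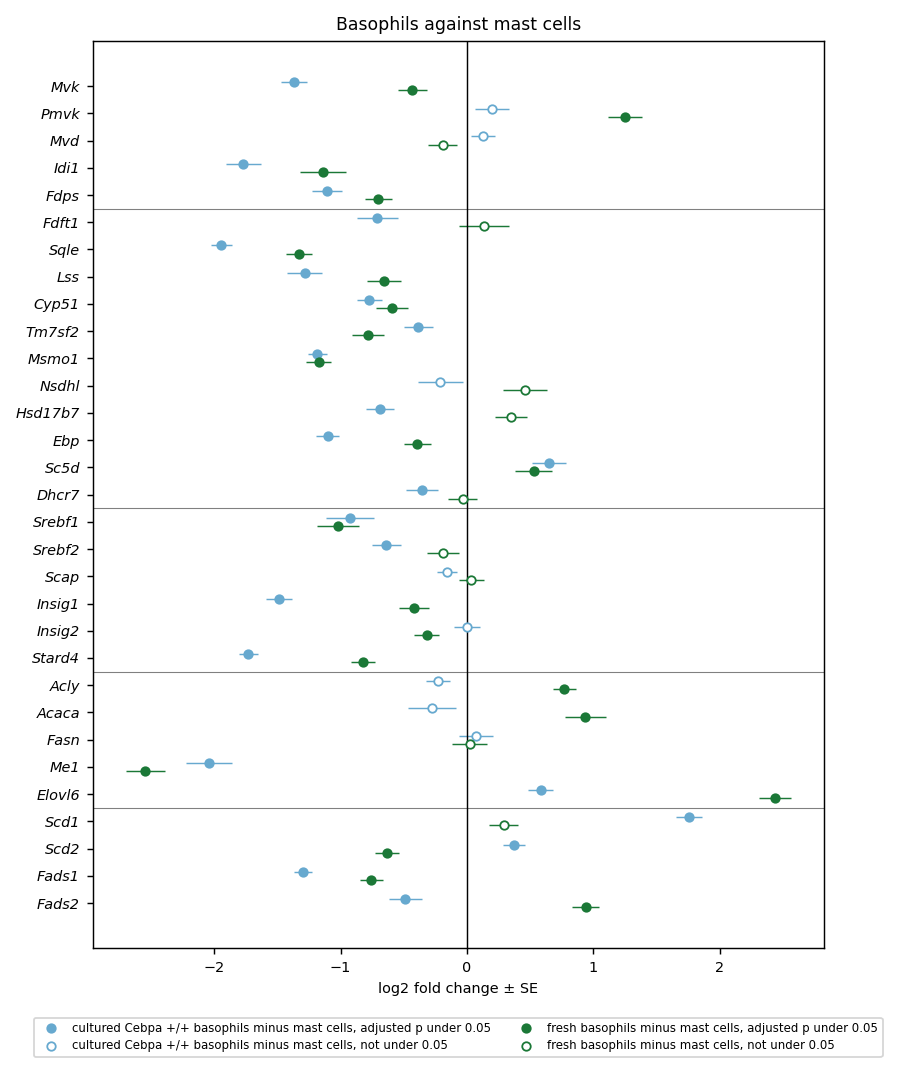
Differences between basophils and mast cells for each of the 31 genes (rows) as log2 fold change ± SE, for fresh basophils and for cultured, untreated Cebpa +/+ basophils against the same mast cell arrays; filled points have a limma adjusted p under 0.05. Sqle, Idi1 and Msmo1 lie below 0 in both, and Elovl6 lies at 2.44 for fresh and 0.58 for cultured basophils.

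Set against fresh basophils, cultured Cebpa +/+ basophils without the drug had lower levels of 18 of the 31 genes and higher levels of 6. The share is 77.4% of the 31, and 34.9% of all probes were called (17.3% higher and 17.6% lower), or 56.4% of genes above background. These cells differ in culture and also in the creER and reporter alleles, which cannot be told apart. The 6 higher calls were 3 without untreated Cebpa +/+ replicate 1 or 2 or without normalization, and 2 with median scaling. The median was -0.53 over the 31 genes and 0.0094 over all genes, and 10 of the 16 cholesterol genes were lower and 2 higher.

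Elovl6, Scd1, Fads2 and Acaca, all fatty acid genes, had the largest differences among the 31 genes in this comparison, followed by Insig1. Elovl6 measured 246.6, 248.2 and 233.6 in cultured basophils, against 784.6, 949.5 and 912.6 in fresh ones (-1.79 ± 0.10, limma adjusted p = 1.55e-10). Fads2 measured 28.4, 33.4 and 28.2, against 112.7, 106.4 and 101.9 in fresh ones (-1.42 ± 0.13, adjusted p = 1.56e-07). Acaca, acetyl-CoA carboxylase, measured 83.2, 80 and 126.6, against 287.6, 211.7 and 217.1 in fresh ones (-1.19 ± 0.19, adjusted p = 8.15e-05). All 3 were lower in culture, and no groups overlapped.

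Scd1 and Scd2 were the fatty acid genes that rose in culture above background. Scd1 measured 239.2, 252.8 and 220.7 in cultured basophils, against 72.5, 77.1 and 77.0 in fresh ones (1.47 ± 0.11, limma adjusted p = 5.92e-09), and Scd2 was higher by 1.01. Me1 was also called, with both groups not above background, so no fold is given. Insig1 was lower (-1.08 ± 0.10, adjusted p = 1.47e-07), as was Srebf2 (-0.45 ± 0.11, adjusted p = 0.00493), and Insig2 was higher by 0.31 ± 0.10 (adjusted p = 0.0225), a call lost without fresh replicate 2 or untreated Cebpa +/+ replicate 1 or 2. With median scaling the Insig2 difference was 0.05 (adjusted p = 0.885), and without normalization it was 0.0019 (adjusted p = 0.994). Srebf1 had a difference of 0.08 ± 0.19 (adjusted p = 0.823).

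The sterol export list had 4 of 6 genes higher in culture and none lower (2 higher and 1 lower with median scaling or without normalization), Abcg1, a cholesterol exporter to lipoproteins, by 1.97 ± 0.09 (limma adjusted p = 9.70e-12). The summed neutrophil markers were 12206.8 to 13985.8 in cultured basophils, against 84191.3 to 87006.2 in fresh ones. The 5 mast cell markers, all higher, summed to 12973.3 to 14016.5, against 573.1 to 589.9 in fresh ones, where Mcpt2 was not above background. The 4 eosinophil markers, all lower, summed to 4461.5 to 4614.6, against 48280.1 to 49688.6 in fresh ones. The part of these cells in the differences was not tested.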

How the data were processed

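Expression was measured on 18 single-dye arrays, 3 in each of 6 groups. Per the labels' protocols, RNA came from Trizol and a column kit and carried a cyanine label. The deposited table holds 1 linear intensity per probe and array, and the sources used here do not give how the authors scanned or normalized it. Of 26423 probes, 21876 carried 1 gene symbol in the platform annotation and 4547 none. The brightest probe stood for a gene.

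Intensities were quantile-normalized within the arrays of each fit, had 16 added and were log2-transformed. They were fitted in R 4.3.3 by lmFit and eBayes of limma 3.58.1. The fits used the 6 arrays of fresh basophils and mast cells, the 12 arrays of cultured basophils, or all 18 arrays for comparisons across these. Benjamini-Hochberg adjustment covered all probes. Lists are described by counts and medians. Scripts were tested on simulated data. The genes and lists were chosen with earlier results of these data known. Per comparison, the 5 called genes with the largest change were named with statistics, besides Srebf1, Srebf2, Insig1 and Insig2; up to 3 genes were named per related list. Elovl6 in the genotype-by-drug test was named in addition. Same-numbered samples did not deviate together: the correlation of their deviations was -0.174 to -0.00284 between fresh basophils and mast cells and exceeded 0.1 in 3 of 18 pairs among cultured groups. Replicate numbers were therefore not used as pairs. No pair of arrays held identical values. Alternatives were other scalings, an offset of 50, only the brighter 70% of probes, array weights, trended and robust variance, averaging a gene's probes, other sample sets, a replicate block and leaving out each array.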

Additional observations from a re-analysis of the deposited data

Results flagged for a closer look

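For 6 genes the effect of 4-hydroxytamoxifen differed between Cebpa f/f and Cebpa +/+ basophils by the test of the difference itself, over 3 arrays per group. The drug effect in Cebpa f/f minus that in Cebpa +/+ cells was 0.84 for Idi1 (limma adjusted p = 0.00193), 0.79 for Fdps (adjusted p = 0.0141), 0.76 for Fdft1 (adjusted p = 0.0124) and 0.50 for Insig1 (adjusted p = 0.0307) on the log2 scale. It was -0.47 for Elovl6 (adjusted p = 0.0232) and -1.01 for Scd1 (adjusted p = 9.17e-04). The 6 genes are 19.4% of the 31, near the 18.7% of genes above background that passed this test. With median scaling only Scd1 of the 6 passed.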

How the results depend on the processing

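Signal near background and 3 arrays per group limited the dim genes. Several counts changed with the scaling, and the cause was not tested. Without normalization between arrays, fresh basophils against mast cells gave 11 higher and 6 lower genes, in place of 6 and 16, and Insig1 (0.15) and Insig2 (0.25) took the opposite sign; cultured basophils against mast cells gave 6 and 15, in place of 4 and 19. That setting gave 13 lower and 1 higher for the drug in Cebpa +/+ cells (7 and 3 in the report), 8 higher and 1 lower for the genotype-by-drug test (4 and 2), 6 higher and 2 lower for untreated Cebpa f/f against Cebpa +/+ cells (9 and 1) and 3 higher and 22 lower for cultured against fresh basophils (6 and 18). Median scaling gave 2 lower and 2 higher for the drug in Cebpa +/+ cells, 1 higher and 2 lower in Cebpa f/f cells (3 and 2), 0 higher and 1 lower for the genotype-by-drug test by limma, 0 lower and 9 higher for untreated genotypes, and 2 higher and 20 lower for cultured against fresh basophils. The median of all probes lay at 0.16 in fresh basophils against mast cells and 0.11 in cultured basophils against mast cells without normalization (-0.04 in both with it), and for the genotype-by-drug test at 0.12 without normalization and -0.13 with median scaling (-0.0079 with quantile normalization). The lower count in untreated genotypes was 2 with array weights, the brighter 70% of probes or an offset of 50. The lower count for the drug in Cebpa f/f cells was 4 with all 18 arrays, the brighter 70% of probes, trended and robust variance, an offset of 50 or scaling on probes above background, which gave 2 higher.

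Leaving out 1 array gave 5 to 6 higher and 12 to 14 lower genes for fresh basophils against mast cells, 9 to 10 and 1 to 1 for treated genotypes, 3 to 8 and 0 to 1 for untreated genotypes, 2 to 3 and 2 to 4 for the drug in Cebpa f/f cells and 1 to 3 and 5 to 7 in Cebpa +/+ cells. It gave 3 to 5 and 1 to 3 for the genotype-by-drug test, 3 to 6 and 18 to 19 for cultured against fresh basophils and 4 to 4 and 17 to 19 for cultured basophils against mast cells.

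With the replicate number as a block, the counts of higher and lower genes were 6 and 15 for fresh basophils against mast cells, 9 and 1 for treated genotypes, 7 and 1 for untreated genotypes, 2 and 2 for the drug in Cebpa f/f cells, 3 and 7 in Cebpa +/+ cells, 3 and 2 for the genotype-by-drug test, 5 and 18 for cultured against fresh basophils and 4 and 19 for cultured basophils against mast cells. The samples share only a number.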
